A study of Homo sapiens and Mus musculus with 8 samples.

Results

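Xenografts of the human colorectal cancer line LS174T, labelled GNAS R201H, were compared between a tumor marked Dox (+) and a tumor marked Dox (-), with 1 RNA sequencing library on each side. The genes described are those that reached 5 CPM in either of the 2 libraries, 11657 of the 60483 genes in the table. Of these, 10922 are protein-coding. At the border of the threshold, TTLL1 and ZNF112 entered with 5.03 CPM, and DLEU2 and CLCN4 stayed out with 4.99 CPM. CPM is the usual unit of scaled counts, a gene's reads as a share of its library's adjusted total, and a log2 ratio is always Dox (+) over Dox (-).

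A xenograft is a tumor grown in a mouse from injected human cells. LS174T is a mucin-producing colorectal cancer line with goblet cell features, and Dox is doxycycline, an antibiotic used to switch on engineered genes. The labels give both tumors the genotype GNAS R201H and do not say what Dox induces, at what dose or for how long, from which mouse strain or age the tumors came, or whether animals were pooled. The series has 8 libraries, which also cover LS174T cultures in the same 2 states and the line KM12, parental (GNAS R201H) or GNAS knockout, as cultures and xenografts. As no LS174T sample received Dox in the absence of that GNAS label, what Dox does by itself cannot be told apart from GNAS. With 1 library a side there is no replicate check and no test: the intervals given are 95% counting intervals, which leave out the spread between tumors. Nor can fewer cells of a type be told apart from less RNA per cell in a whole tumor.

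GNAS codes for Gs alpha, the subunit by which hormone receptors switch on adenylyl cyclase; the cyclase makes cAMP, and cAMP releases protein kinase A (PKA), which phosphorylates the transcription factor CREB. The R201H change blocks the GTPase of the subunit and holds it in its active form. In the intestine cAMP is known for driving chloride and mucus secretion, and GNAS mutations are found in mucinous tumors.

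The Dox (-) library held 23124811 counts over 27596 genes and the Dox (+) library 18700935 counts over 26253 genes. Markers of colorectal epithelium and goblet cells were all present in both tumors. Summed over 11 epithelial markers the level was 9195 CPM in the Dox (-) tumor and 6684 CPM in the other, and over 7 goblet markers 2715 and 2632 CPM. The table holds human genes only, and the human markers of other cells were low. The 7 fibroblast markers summed to 3.49 and 3.48 CPM, with DCN and PDGFRA at 0 in both. The 5 endothelial markers summed to 0.568 and 0.92 CPM with KDR at 0 in both, and the 5 leukocyte markers to 8.65 and 5.18 CPM, most of it CD14. The 4 lymphocyte markers summed to 0.162 CPM in Dox (-) and had no count in Dox (+). Wider lists of the same cells summed to 14.7 and 13.1 CPM over 15 fibroblast genes, 7.96 and 9.82 CPM over 11 endothelial genes, 9.38 and 8.08 CPM over 15 leukocyte genes and 6.25 and 3.63 CPM over 10 lymphocyte genes. In the LS174T cultures, without and with Dox, the fibroblast list summed to 23.2 and 21.3 CPM and the endothelial list to 7.99 and 7.08 CPM. The leukocyte list summed there to 51.9 and 40.4 CPM and the lymphocyte list to 0.613 and 0.893 CPM. Such sums are thus not a measure of non-tumor cells. KRT10 made nearly all of the skin signal, at 27.9 and 36.7 CPM, while KRT1 and KRT14 were at 0. How mouse reads were handled is not given in the sources used here, and mouse transcripts were not analysed here.

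GNAS itself (ENSG00000087460, chromosome 20, 58839718 to 58911192 on GRCh38) read 584 CPM in the Dox (-) tumor and 690 CPM in the Dox (+) tumor. The ratio was 1.18 (counting interval 1.15 to 1.21), a log2 ratio of 0.24. In the LS174T cultures the same gene read 690 CPM without and 1742 CPM with Dox, a log2 ratio of 1.34. The Dox (+) tumor thus read the same 690 CPM as the culture without Dox. These counts pool mutant and normal GNAS RNA, so they do not give the share that is mutant.

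Most genes differed little between the tumors: 79.0% of the 11657 genes lay within 0.5 of 0 on the log2 scale, with a median of 0.02 and quartiles of -0.25 and 0.26. A ratio of 2-fold or more is used below to pick out genes. By that measure 167 genes (1.43%) were higher in the Dox (+) tumor and 337 (2.89%) were lower, 504 (4.32%) in all. At 4-fold or more the balance turned, with 43 higher and 28 lower, and at 8-fold or more 20 were higher and 1 was lower. In the LS174T cultures the same genes passed 2-fold upward in 38 cases (0.326%) and downward in 39 (0.335%). Within this set the xenograft pair had more genes past 2-fold than the culture pair, while its ratio of GNAS was smaller. The set was chosen by level in the xenografts. Genes high in 1 xenograft only therefore enter it, and genes high in 1 culture only do not, so the counts of the 2 pairs are not on equal terms. In KM12 xenografts, parental over knockout, 443 of the same genes (3.8%) were 2-fold higher and 548 (4.7%) lower. These KM12 counts take in genes with almost no KM12 reads. VLDLR, for instance, passed 2-fold there with 1 count in the knockout and 2 in the parental tumor. The KM12 counts are therefore not on equal terms with those of the LS174T xenografts either.

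**Figure D1:**
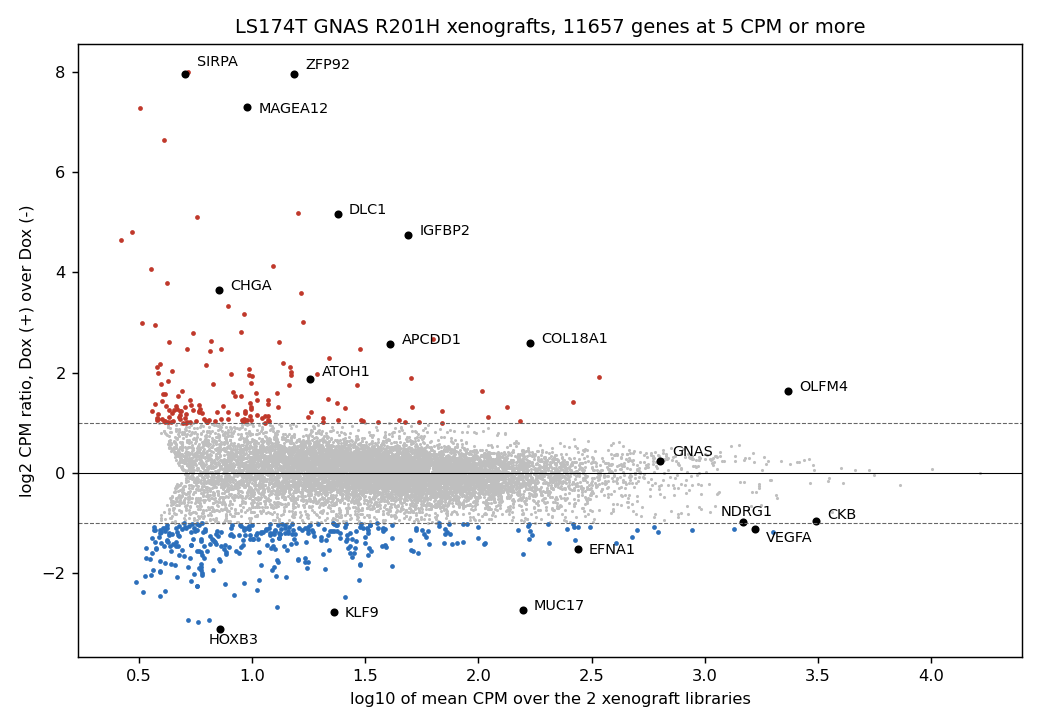
Log2 CPM ratio (Dox (+) over Dox (-), vertical axis) against the log10 of the mean CPM of the 2 xenograft libraries (horizontal axis) for 11657 genes, 1 point a gene; dashed lines mark 2-fold, with 167 genes above (red) and 337 below (blue). The genes farthest above lie at low mean CPM because the Dox (-) tumor had almost none of them, while OLFM4 and MUC17 stand apart at high levels.

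Several genes were almost silent in the Dox (-) tumor and read at ordinary levels in the other 3 LS174T libraries. Below 0.5 CPM in Dox (-) were 10 of the 11657 genes, against 0 in Dox (+). This group was singled out after its values were seen, and 1 of the 10 has no symbol. Its clearest members sit on the X chromosome: MAGEA12, a cancer/testis antigen, CSAG1, another antigen gene beside it, and ZFP92, a zinc finger gene farther along the same band. The promoter windows of MAGEA12 (window 2 of 2) and ZFP92 are printed because the genes went from near 0 to 19.1 and 30.5 CPM. They run from 250 bases before to 50 after the annotated start, from RefSeq on GRCh38.p14, with each CG dinucleotide, the site of DNA methylation, in capitals.
MAGEA12, chrX:152733612-152733911, plus strand: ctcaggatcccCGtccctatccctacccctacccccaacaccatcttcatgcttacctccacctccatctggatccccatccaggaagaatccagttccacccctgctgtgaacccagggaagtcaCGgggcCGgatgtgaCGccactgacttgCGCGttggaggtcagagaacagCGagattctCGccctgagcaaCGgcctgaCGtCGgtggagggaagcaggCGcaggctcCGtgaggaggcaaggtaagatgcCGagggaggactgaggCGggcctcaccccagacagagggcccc
ZFP92, chrX:153411222-153411521, plus strand: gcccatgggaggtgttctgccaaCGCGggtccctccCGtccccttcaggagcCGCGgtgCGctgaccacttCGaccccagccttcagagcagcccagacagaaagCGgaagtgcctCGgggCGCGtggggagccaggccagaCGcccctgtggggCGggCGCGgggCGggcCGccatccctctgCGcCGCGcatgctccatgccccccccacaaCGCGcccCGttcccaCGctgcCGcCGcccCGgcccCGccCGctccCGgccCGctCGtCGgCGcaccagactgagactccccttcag
The MAGEA12 window printed holds 15 CG, its other window 9 and the ZFP92 window 34, where the median of 35116 windows is 14. CSAG1 is read from the opposite strand, and its window shares 240 bases with the MAGEA12 window printed, so both genes start from nearly the same stretch. Methylation was not measured in these data.

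MAGEA12 (chromosome X, 152733779 to 152737669) had 0 counts in the Dox (-) tumor and 394 counts, 19.1 CPM, in the Dox (+) tumor. By the lower limit of the counting interval it was at least 126.7-fold higher, and set against a floor of 3 counts in the Dox (-) library the ratio was 156.6. The cultures read 18.9 CPM without and 18.8 CPM with Dox. CSAG1 had 1 count in Dox (-) and 215 counts (10.4 CPM) in Dox (+), a ratio of 256 (45.5 to 10170), with 17.8 and 17.6 CPM in the cultures. ZFP92 had 3 counts against 630 (30.5 CPM), a ratio of 250 (85.3 to 1217), and read 9.68 and 11.7 CPM in the cultures. For all 3 genes the Dox (-) tumor is the library that stands apart from the other 3 of this line.

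The stretch of X around these genes was then read as a whole, from MAGEA3 to BGN (152698752 to 153509554), a choice made after the values were seen. Of its 16 genes with 1 CPM or more in any LS174T library, 6 were 2-fold or more higher in Dox (+) and 2 were lower. Of all 15780 genes at that level, 4.33% were 2-fold higher and 6.43% lower; as the stretch was picked for its values, nothing is read from the count. The higher ones were CSAG1, MAGEA12, ZFP92, TREX2 (below 5 CPM in both tumors), PNMA6E (4.87 to 22.4 CPM) and BGN, the matrix proteoglycan biglycan (3.69 to 22.7 CPM). MAGEA2B (25 and 4 counts, below 5 CPM in both tumors) and ZNF185 were lower, at log2 ratios of -2.39 and -1.03. Genes between them differed little: MAGEA6 read 72.2 and 84.3 CPM, CSAG3 5.28 and 5.37 CPM, and NSDHL, a cholesterol enzyme, 35.2 and 35.7 CPM. MAGEA and CSAG genes are close copies of each other, so reads can be split among them and their single values are uncertain.

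Outside the X chromosome the same pattern appeared in SIRPA, which encodes the receptor for the CD47 signal that restrains macrophages. SIRPA had 1 count in Dox (-) and 209 counts (10.1 CPM) in Dox (+), beside 9.40 and 9.89 CPM in the cultures. GJA1, the gap junction protein connexin 43, had 1 count against 131 (6.34 CPM), beside 2.88 CPM in both cultures. NID1, the basement membrane protein nidogen, read 0.325 against 11.1 CPM, with 1.59 and 1.92 CPM in the cultures. The Dox (-) tumor was the lowest library for SIRPA, GJA1 and NID1. BCHE, a serum cholinesterase, read 0.203 against 5.66 CPM, and ROBO2, an axon guidance receptor, 0.203 against 5.08 CPM. For these 2 the cultures were also low, at 0.727 CPM or less, so the Dox (+) tumor was the higher outlier. PDE10A, a phosphodiesterase that degrades cAMP, read 0.406 against 6.78 CPM, and 8.15 and 15.2 CPM in the cultures.

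**Figure D2:**
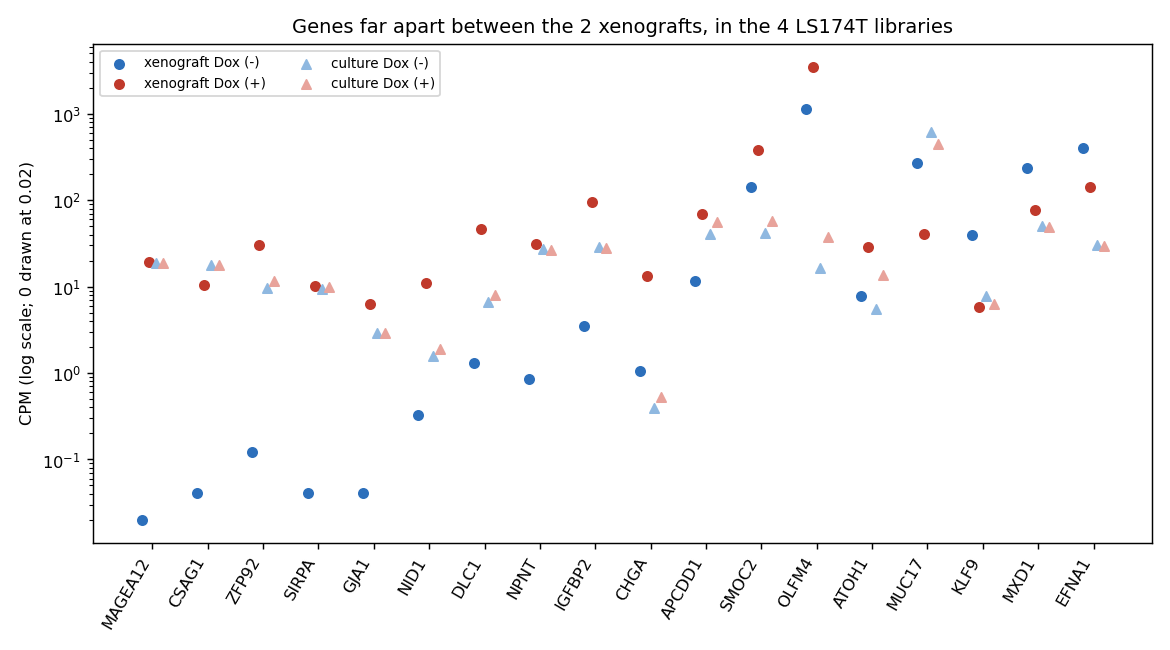
CPM on a log scale of 18 genes in the 4 LS174T libraries (circles, xenografts; triangles, cultures; blue, Dox (-); red, Dox (+)), with a value of 0 drawn at 0.02. MAGEA12, CSAG1, ZFP92 and SIRPA are near 0 only in the Dox (-) xenograft, whereas MXD1 and EFNA1 are highest there; genes were chosen after their values were seen.

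Other protein-coding genes lay far above their Dox (-) level. DLC1, a GTPase-activating protein, read 1.30 CPM without Dox and 46.4 CPM with it, a ratio of 35.7 (25.1 to 52.5). NPNT, the basement membrane protein nephronectin, read 0.853 and 31.0 CPM, a ratio of 36.3 (23.6 to 59.1). IGFBP2, which binds insulin-like growth factors, read 3.53 and 94.3 CPM, a ratio of 26.7 (21.5 to 33.5). NPNT lay at 27 and 26.4 CPM in the cultures, close to the Dox (+) tumor, while DLC1 (6.62 and 8.00 CPM) and IGFBP2 (28.6 and 28.1 CPM) lay between the tumors. GMPR, a purine enzyme, was 17.4-fold (12.2 to 25.6) higher and ZNF22, a zinc finger gene, 13.8-fold (7.99 to 25.8).

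Among genes chosen after their values were seen, because they were both abundant and far apart, COL18A1, a basement membrane collagen, read 47.9 and 289 CPM, a ratio of 6.03 (5.66 to 6.42). CCND2, cyclin D2, read 17 and 109 CPM, a ratio of 6.42 (5.78 to 7.14). Both were nearer the Dox (+) level in the cultures, with COL18A1 at 238 and 199.6 CPM and CCND2 at 137 and 118 CPM. LCN15, a lipocalin, read 142 and 539 CPM in the tumors and at most 1.53 CPM in the cultures. NOS2, the inducible nitric oxide synthase, read 1.83 and 16.5 CPM, with under 1 CPM in both cultures. Of the non-coding genes, PCAT14 (2.52 to 30.3 CPM), TPTEP1, CCDC188BP, HCP5 and EEF1A1P5 were the 5 most clearly higher, and CCDC144BP, TATDN2P2, RPL23AP64 and CCDC183-AS1 were among the 5 most clearly lower.

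On the lower side, MUC17, a membrane mucin of the brush border, read 272 CPM in the Dox (-) tumor and 41.2 CPM in the Dox (+) tumor, a ratio of 0.151 (0.141 to 0.163). The cultures held more of it, 621 and 452 CPM, so the Dox (+) tumor was the lowest of the 4. Its neighbours on chromosome 7 went the same way: MUC12 read 33.0 and 8.81 CPM and MUC3A 249 and 149.9 CPM (log2 ratio -0.73). Of 7 such genes from ACHE to TRIM56 (100889994 to 101097967), a stretch chosen after its values were seen, 4 were 2-fold or more lower, MUC17, MUC12, ACHE and 1 unnamed gene inside MUC3A. The share over all genes at that level was 6.43%, and again nothing is read from the count. TRIM56, at the far end, read 48.4 and 51.0 CPM. Membrane mucins share repeats, so their single values are uncertain.

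KLF9, a transcription factor induced by glucocorticoids, read 40.0 CPM in Dox (-) and 5.86 CPM in Dox (+), beside 7.84 and 6.32 CPM in the cultures. HOXB3, a homeobox gene, had the lowest ratio of the 11657 genes, 0.116 (0.0774 to 0.168), from 13 to 1.5 CPM. PCSK6, a proprotein convertase, read 11.4 and 1.5 CPM. GAS7, a cytoskeletal protein, read 22.3 and 3.48 CPM, with the cultures at 25.1 and 21 CPM. KLF9 was thus high in the Dox (-) tumor alone among the 4 libraries, and GAS7 low in the Dox (+) tumor alone. The others with the most clearly separated ratios were CRYBG2, GXYLT2, SCIN, WWC2, MALL, DAB2, the trehalase TREH, the fatty acid hydroxylase CYP4F2, and 2 regulators of hypoxia and the clock, EPAS1 (9.42 and 1.98 CPM) and BHLHE41 (5.52 and 1.06 CPM). EPAS1 encodes HIF-2 alpha, and the cultures read 28.9 and 26.7 CPM of it.

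Abundant genes that were lower, again picked after their values were seen, included EFNA1, an ephrin ligand, at 407 and 142 CPM, and MXD1, a MYC antagonist of differentiating cells, at 237 and 77.3 CPM. The cultures read 30.2 and 29.7 CPM of EFNA1 and 50 and 49.0 CPM of MXD1, so both were above culture in both tumors and most so in Dox (-). Of the 337 genes 2-fold lower, 189 (56.1%) lay above both cultures in both tumors, as did 60 of the 167 genes 2-fold higher (35.9%) and 36.5% of all 11657 genes. The mean of the cultures was nearer the Dox (+) value for 243 of the 337 (72.1%), for 80 of the 167 (47.9%) and for 57.8% of all genes. Among the most abundant transcripts, PIGR, which carries IgA across the epithelium, read 4628 and 2697 CPM, and CKB, a creatine kinase, 4092 and 2095 CPM.

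Lists of genes with a known common role are described next by how many members lay above or below a ratio of 1 and by their median, beside 51.6% above, 48.4% below and a median of 0.02 over all 11657 genes. Only members at 5 CPM or more in either tumor are counted. A member that reached 5 CPM in 1 tumor only had to differ, so the counts at 2-fold are a description.

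**Figure D3:**
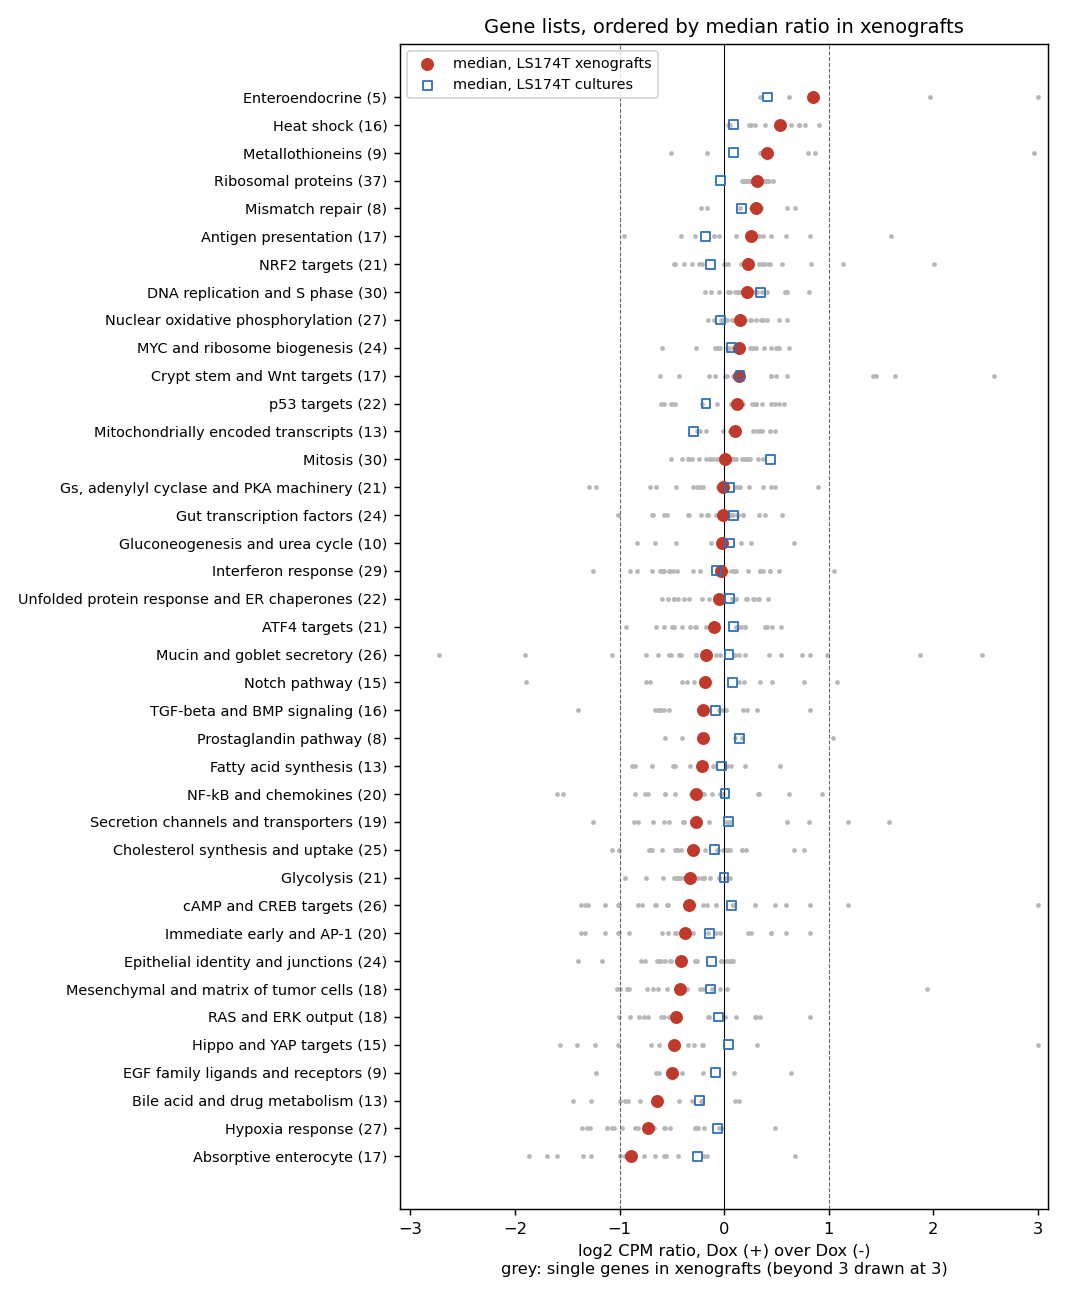
Log2 CPM ratio, Dox (+) over Dox (-) (horizontal axis), for each gene list with at least 5 members (vertical axis, number of members in brackets): grey points are genes in the xenografts, red circles their medians and open blue squares the medians of the same genes in the LS174T cultures. Absorptive enterocyte (-0.89) and hypoxia genes (-0.72) stand lowest, enteroendocrine (0.85) and heat shock genes (0.54) highest, and the culture medians lie nearer to 0 in each of these 4 lists.

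Across all genes the median ratio of the xenografts moved with transcript length. Split into 5 equal groups by the length of the longest annotated transcript, the median log2 ratio ran from 0.20 in the shortest group (median 1562 bases) through 0.10, 0.01 and -0.06 to -0.16 in the longest. In the LS174T cultures the 5 groups lay between -0.003 and 0.023, and in KM12 xenografts between -0.014 and 0.017. With GC content the xenograft medians showed no such course, with groups between -0.03 and 0.06. Genes 2-fold lower nevertheless rose from 39 in the lowest GC group to 95 in the highest, and genes 2-fold higher from 23 to 38. In the LS174T cultures the median fell with GC content, from 0.09 to -0.07. No centring on GC content was made. The median of a list after centring each gene on its length group is therefore given beside the plain one where the 2 differ by more than 0.05; the source of the length trend was not tested.

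**Figure D4:**
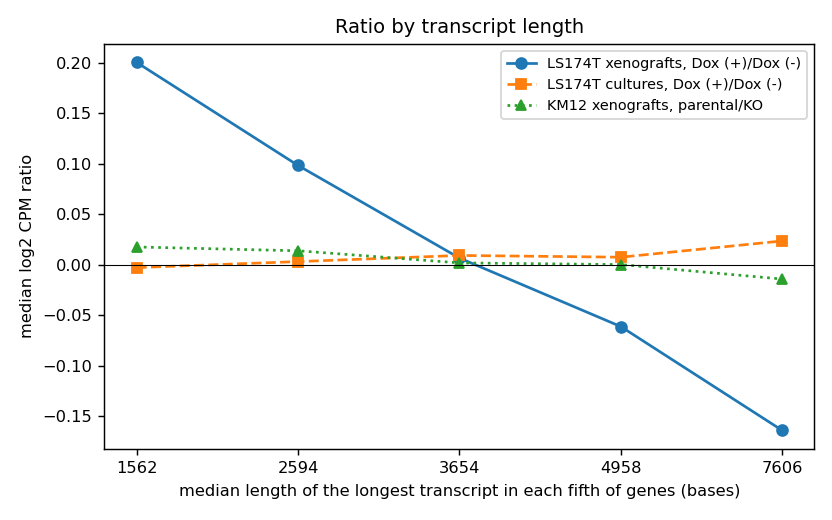
Median log2 CPM ratio (vertical axis) in each of 5 equal groups of genes by transcript length (horizontal axis, the group's median length in bases), for the LS174T xenograft pair, the LS174T culture pair and the KM12 xenograft pair. The LS174T xenograft line drops from 0.20 to -0.16 while the other 2 stay within 0.03 of 0.

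Genes of the hypoxia response, which the HIF factors switch on when oxygen is short, were lower in the Dox (+) tumor: 26 of 27 members lay below 1, with a median log2 ratio of -0.72, and 7 (25.9%) were 2-fold lower where 2.89% of all genes were. Centred on length the median was -0.67. In the cultures the same genes had a median of -0.07. Summed over the list, the level was 11882 CPM in Dox (-) and 6528 CPM in Dox (+), against 1431 and 1362 CPM in the cultures. Both tumors thus stood well above culture, and the Dox (-) tumor farther. Members near the top and bottom of the list are shown by their promoter windows, on GRCh38.p14 from RefSeq, with ACGTG, the core of the HIF-binding element, in capitals on either strand (CACGT is its reverse complement, and CACGTG holds it on both strands).
BHLHE40, chr3:4979187-4979486, plus strand: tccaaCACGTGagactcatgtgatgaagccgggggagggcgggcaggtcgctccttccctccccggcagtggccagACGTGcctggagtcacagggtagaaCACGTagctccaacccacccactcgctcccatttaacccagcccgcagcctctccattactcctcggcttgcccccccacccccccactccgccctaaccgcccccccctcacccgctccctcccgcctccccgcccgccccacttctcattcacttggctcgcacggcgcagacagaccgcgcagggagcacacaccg
DDIT4, chr10:72273674-72273973, plus strand: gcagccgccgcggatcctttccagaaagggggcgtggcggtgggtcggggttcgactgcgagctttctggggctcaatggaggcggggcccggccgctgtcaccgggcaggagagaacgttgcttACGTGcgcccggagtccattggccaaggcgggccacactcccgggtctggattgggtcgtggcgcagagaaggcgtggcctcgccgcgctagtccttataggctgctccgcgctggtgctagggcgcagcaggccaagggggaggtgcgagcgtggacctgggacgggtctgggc
CA9, chr9:35673678-35673977, plus strand: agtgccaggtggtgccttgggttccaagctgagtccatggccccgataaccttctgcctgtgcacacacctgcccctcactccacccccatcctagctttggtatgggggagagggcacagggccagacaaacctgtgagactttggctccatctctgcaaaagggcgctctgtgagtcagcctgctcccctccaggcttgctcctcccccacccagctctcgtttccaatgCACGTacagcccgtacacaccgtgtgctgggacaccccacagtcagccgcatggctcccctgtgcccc
The motif occurs 4 times in the BHLHE40 window and 1 time each in those of DDIT4 and CA9. It was found in 15 of 27 windows of hypoxia genes, beside 21.4% of all 35116 windows and 26% of the windows of the genes described here. Counted by gene, 14 of 22 hypoxia genes with a window held it, beside 33.2% of the genes described that have a window. CA9 differed little between the tumors although its window holds the motif.

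VEGFA, the main growth factor for blood vessels, read 2273 CPM without Dox and 1047 CPM with it, a ratio of 0.461 (0.454 to 0.468). DDIT4, an inhibitor of the growth kinase mTORC1, read 1849 and 853 CPM, and BHLHE40, a clock and hypoxia repressor, 678 and 279 CPM. The cultures held 151 and 138 CPM of VEGFA, 55.3 and 52.5 CPM of DDIT4 and 30.5 and 24.6 CPM of BHLHE40. ANGPTL4 (37.3 to 14.5 CPM), HILPDA, a lipid droplet protein (239 to 96.5 CPM), ADM, the peptide adrenomedullin (372 to 177 CPM), and PPFIA4 were the others at 2-fold. Centred on length, VEGFA (-0.95) and PPFIA4 (-0.89) came just inside 2-fold. NDRG1 read 1959 and 998 CPM, just short of 2-fold at a log2 ratio of -0.97. CA9, the tumor carbonic anhydrase, was the exception among the strongly induced members: it read 233 and 229 CPM in the tumors and under 1 CPM in both cultures. STC1 was the 1 member above 1, at a log2 ratio of 0.48, as it was in the cultures, at 0.45.

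**Figure D5:**
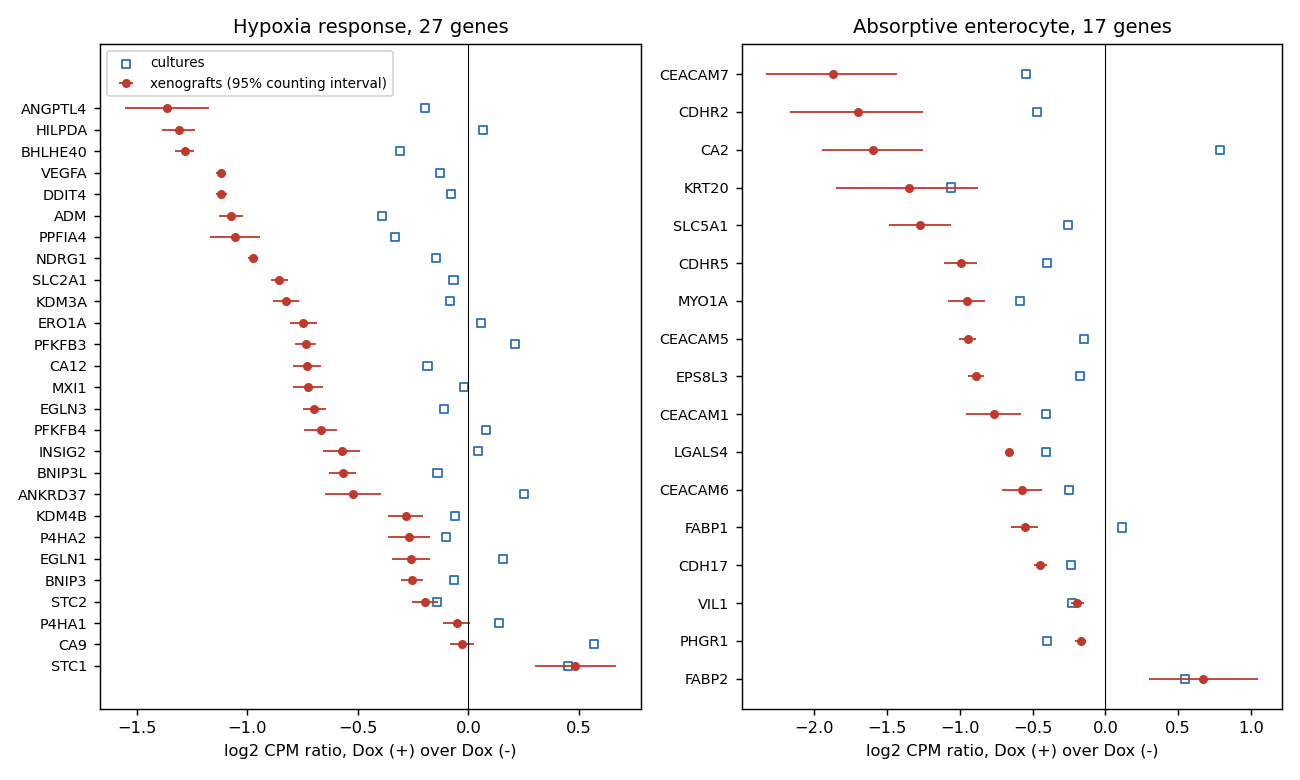
Log2 CPM ratio, Dox (+) over Dox (-) (horizontal axis), of 27 hypoxia genes (left) and 17 absorptive enterocyte genes (right): red points with bars are the xenografts with 95% counting intervals, open blue squares the LS174T cultures. All hypoxia genes but STC1 and all enterocyte genes but FABP2 lie below 0 in the xenografts.

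Glycolysis genes, many of them also HIF targets, leaned the same way by less. Of 21 members 19 were below 1, with a median log2 ratio of -0.32, and none reached 2-fold. PDK1, the kinase that keeps pyruvate out of the mitochondrion, read 322 and 167 CPM. HK2, a hexokinase, read 604 and 359 CPM, and LDHA, lactate dehydrogenase, 2369 and 1756 CPM. GAPDH, at 5657 and 5481 CPM, and TPI1, at 940 and 946 CPM, hardly differed.

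Genes of absorptive enterocytes, the mature cells of the gut lining that take up nutrients, were lower in the Dox (+) tumor. Of 17 members 16 lay below 1, with a median log2 ratio of -0.89 (-0.96 centred on length), and 5 were 2-fold lower (29.4%, beside 2.89% of all genes). Of these 5, 4 reached 5 CPM in the Dox (-) tumor only and so had to differ, which makes the count, the share and the median a description. In the cultures the median was -0.26. CEACAM7, an adhesion glycoprotein of the surface epithelium, read 9.38 and 2.57 CPM, and 30.3 and 20.8 CPM in the cultures. CDHR2, a brush border cadherin, read 8.16 and 2.52 CPM, and KRT20, a keratin of mature lining cells, 6.05 and 2.37 CPM. The others at 2-fold were CA2, a carbonic anhydrase, which was higher with Dox in the cultures (9.89 and 17.1 CPM) but lower in the tumor (13.2 and 4.36 CPM), and SLC5A1, the glucose transporter SGLT1. LGALS4, the most abundant member, read 1958 and 1234 CPM. FABP2, a fatty acid carrier, was the 1 member above 1, at 4.34 and 6.92 CPM. Of the 28 genes listed, 9 were under 1 CPM in both tumors and 4 had no count in either.

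Related lists leaned the same way. Bile acid and drug metabolism genes had a median of -0.65 over 13 members, 11 of them below 1, with CYP3A5, a drug oxidase, at 56.5 and 20.8 CPM and ABCC3, an export pump, at 83.1 and 34.4 CPM. Epithelial identity and junction genes had a median of -0.42 (-0.47 centred on length) over 24 members, 19 below 1. ESRP2, a splicing factor of epithelia, read 297 and 113 CPM, and ELF3, an epithelial transcription factor, 861 and 383 CPM. The keratins KRT8 (2445 and 1723 CPM) and KRT19 (997 and 575 CPM) were lower, while EPCAM (762 and 744 CPM) and the claudins CLDN3, CLDN4 and CLDN7 differed by less than 0.1 on the log2 scale. In the cultures KRT19 read 2213 and 1576 CPM, lower with Dox there too.

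Crypt stem cell and Wnt target genes mark the base of the crypt, where the gut lining renews itself. Of 17 members 13 were above 1 with a median of 0.14 (0.20 centred on length), and 4 were 2-fold higher, beside 1.43% of all genes. OLFM4, a secreted marker of crypt base cells, read 1131 CPM without Dox and 3517 CPM with it, a ratio of 3.11 (3.07 to 3.15). It was low in the cultures, at 16.5 and 37.9 CPM, and there too higher with Dox. APCDD1, a Wnt inhibitor at the membrane, read 11.7 and 70.0 CPM, SMOC2, a matrix protein of stem cells, 142 and 380 CPM, and PTK7, a Wnt co-receptor, 5.64 and 15.4 CPM. The stem cell receptor LGR5 (145 and 154 CPM) and the feedback gene AXIN2 (288 and 289 CPM) hardly differed. MYC read 245 and 335 CPM, and EPHB2, a receptor that sorts crypt cells, 312 and 473 CPM.

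The secretory genes split. Over 26 mucin and goblet genes the median was -0.18 (-0.25 centred on length), with 11 above 1 and 15 below. ATOH1, the factor that commits cells to the secretory line, read 7.75 and 28.5 CPM, a ratio of 3.67 (3.11 to 4.34), and 5.48 and 13.7 CPM in the cultures. RETNLB, a goblet peptide, read 1.58 and 8.76 CPM, and SPDEF, a goblet cell factor, 21.6 and 36.2 CPM. The gel-forming mucins were lower, MUC2 at 1289.7 and 965 CPM, MUC5B at 844 and 626 CPM and MUC6 at 722 and 541 CPM. Their log2 ratios were -0.42, -0.43 and -0.42. These transcripts fall in the longest length group, whose median over all genes was -0.16, so part of their difference is shared with other long transcripts. The trefoil peptide TFF3 (594 and 635 CPM) and the chaperone of mucin folding AGR2 (577 and 637 CPM) were slightly higher. MUC12 was higher with Dox in the cultures, just short of 2-fold (16.5 and 33.0 CPM, a log2 ratio of 0.999), and lower in the tumor. The third mucin at 2-fold in the tumors was MUC4, at 40.6 and 19.2 CPM.

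Enteroendocrine cells are the hormone cells of the gut and, like goblet cells, arise from ATOH1-positive precursors. Of 20 listed genes 5 reached 5 CPM in either tumor, and all 5 were above 1, with a median of 0.85 (0.75 centred on length). A gene that enters only through its level in 1 tumor had to differ, so this count is a description. CHGA, the granule protein chromogranin A, read 1.06 and 13.3 CPM, a ratio of 12.6 (8.39 to 19.6). FEV, a factor of serotonin cells, read 3.29 and 12.9 CPM. PAX4 read 3.65 and 6.58 CPM, NEUROG3, the factor that starts the lineage, 10.2 and 15.6 CPM, and INSM1 9.70 and 12.3 CPM. All 5 were at most 1.55 CPM in the cultures. The Notch pathway, which opposes secretory fate, was mixed. Of its 15 members 6 were above 1 and 9 below, with a median of -0.18 (-0.13 centred on length). The ligand JAG2 read 27.7 and 7.45 CPM, the target HES1 79.1 and 90.2 CPM and HES5 2.48 and 5.23 CPM. HES5 reached 5 CPM in the Dox (+) tumor only, and these genes do not stand for the list, whose ligands and targets each went both ways.

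The cAMP pathway itself was read next. Over 21 genes of Gs, adenylyl cyclase and PKA the median was -0.01 (0.02 by total counts), with 10 above 1 and 11 below. The cyclase ADCY4 (18.7 and 7.65 CPM) and the PKA inhibitor PKIB (6.21 and 2.66 CPM) were 2-fold lower. PKIB reached 5 CPM in the Dox (-) tumor only and so had to differ. PKIA, another PKA inhibitor, read 10.4 and 19.4 CPM, and the catalytic subunit PRKACA 50.6 and 65.3 CPM. Genes known to respond to cAMP and CREB were lower on balance: 17 of 26 lay below 1, with a median of -0.33, against 0.07 in the cultures. Of these 6 (23.1%) were 2-fold lower and 2 (7.69%) 2-fold higher, beside 2.89% and 1.43% of all genes. Of the 2 higher, PDE10A reached 5 CPM in the Dox (+) tumor only and so had to differ. The promoter window of DUSP1, the lowest of the list, is printed with TGACG, the core of the CREB element, in capitals on either strand (CGTCA is its reverse complement), from RefSeq on GRCh38.p14.
DUSP1, chr5:172771146-172771445, minus strand: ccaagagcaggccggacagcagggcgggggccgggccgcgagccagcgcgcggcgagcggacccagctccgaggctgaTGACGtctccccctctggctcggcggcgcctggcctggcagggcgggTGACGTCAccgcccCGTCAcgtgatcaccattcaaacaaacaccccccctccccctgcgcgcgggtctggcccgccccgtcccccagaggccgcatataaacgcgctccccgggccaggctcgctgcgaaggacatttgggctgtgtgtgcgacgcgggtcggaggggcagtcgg
This window holds this core 4 times over both strands. Of these, 2 lie within 1 copy of the full element TGACGTCA, which is its own reverse complement. The full element was found in 6 of 44 windows of the list and in 1.85% of all windows and 2.89% of the windows of the genes described here. Counted by gene, 5 of 23 in the list held it, beside 3.94% of the genes described that have a window. The core was found in 19 of 44 windows (43.2%), in 24.6% of all windows and in 32.4% of those of the genes described.

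DUSP1, a phosphatase that switches off MAP kinases, read 124 and 47.9 CPM, a ratio of 0.388 (0.361 to 0.417), and 45.1 and 42.3 CPM in the cultures. PPARGC1A, a coactivator of mitochondrial genes, read 28.9 and 11.5 CPM in the tumors but 16 and 22.5 CPM in the cultures, in the opposite direction. The clock gene PER1 (141 and 57.3 CPM) and SIK1, a kinase that damps CREB signaling (18.2 and 9.05 CPM), were also lower in the Dox (+) tumor and higher with Dox in culture (PER1 22.6 and 26.4 CPM, SIK1 2.30 and 3.67 CPM). PCK1, an enzyme of glucose synthesis, read 1024 and 649 CPM in the tumors and 24.5 and 47.0 CPM in the cultures. FOS and KLF4 completed the 6. On the higher side were PDE10A, given above, and AQP3, a water channel, at 5.24 and 11.9 CPM. The CREB family member CREM read 7.35 and 10.3 CPM. These genes respond to other signals as well, and cAMP was not measured here.

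Immediate early and AP-1 genes, which growth factors and stress switch on within minutes, shared several of these members. Of 20 genes 14 were below 1, with a median of -0.38, and 5 were 2-fold lower (25%, beside 2.89% of all genes). FOS read 693 and 315 CPM, a ratio of 0.454 (0.441 to 0.467), and ZFP36, which destabilizes messenger RNA, 381 and 152 CPM. KLF4, a factor of differentiated epithelium, read 224 and 111 CPM and IER3 348 and 173 CPM. EGR1 went the other way, at 30.6 and 54.0 CPM. For KLF4, SIK1 and IER3 the ratio fell just inside 2-fold with libraries scaled by total counts (log2 -0.96, -0.95 and -0.96). RAS and ERK output genes had a median of -0.46 (-0.40 centred on length) over 18 members, 12 of them below 1, with the phosphatases DUSP4 and DUSP6 at 68.3 and 41.1 CPM and at 33.9 and 22.7 CPM. Of the EGF family, TGFA, a ligand, read 16.8 and 7.16 CPM, the receptor EGFR 80.6 and 57.0 CPM and ERBB3 357 and 270 CPM.

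Hippo and YAP target genes were lower in 13 of 15 cases, with a median of -0.48 (-0.56 centred on length). LATS2, the Hippo kinase (11.5 and 3.87 CPM), AMOTL2, a YAP-binding scaffold (102 and 38.7 CPM), ARHGEF17 and AJUBA were 2-fold lower, 4 of 15 (26.7%, beside 2.89% of all genes). Of these 4, LATS2 reached 5 CPM in the Dox (-) tumor only and so had to differ. CCN2 read 18.8 and 11.6 CPM. DLC1, described above, and NUAK2 were higher. The list of mesenchymal and matrix genes of the tumor cells holds laminins, integrins, a collagen and proteases. Of its 18 members 16 were below 1, with a median of -0.42 (-0.35 centred on length). The matrix genes NPNT, NID1, COL18A1 and BGN, described above as higher, are not in this list, so its median does not speak for matrix genes at large. The laminin chain LAMA3 read 34.7 and 17.1 CPM, and PLAU, the urokinase that opens up matrix, 4.14 and 15.9 CPM. BMP2, a growth factor of mature crypt cells, read 156 and 59.1 CPM, and the NF-kB regulator NFKBIZ 42.5 and 14.1 CPM.

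Ribosomal protein genes were slightly and evenly higher: all 37 were above 1, between 0.17 and 0.47 on the log2 scale with a median of 0.31. In the cultures the median was -0.03. These transcripts are short, and after centring on length the median was 0.13, with all 37 still above 0. Heat shock genes, the chaperones that refold proteins, were all above 1 too, 16 of 16, with a median of 0.54 (0.44 centred on length, where 15 of 16 stayed above 0 and HSP90AB1 read -0.04) and none at 2-fold. HSPA8 read 1145 and 1676 CPM, HSP90AA1 1061 and 1538 CPM and DNAJA1 76.5 and 143 CPM. In the cultures the 3 genes stood higher, at 4826 and 5105 CPM, 3417 and 3646 CPM, and 396 and 418 CPM.

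DNA replication genes were above 1 in 27 of 30 cases, with a median of 0.22, PCNA, the clamp of DNA polymerase, at 119 and 180.4 CPM and GINS2 at 28.2 and 49.5 CPM. Mitosis genes were not shifted with them. Their median was 0.01 (-0.06 centred on length), with 16 of 30 above 1, and the proliferation marker MKI67 read 117 and 88.5 CPM. In the cultures both lists were higher with Dox, at medians of 0.35 and 0.44. Respiratory chain genes of the nucleus had a median of 0.15 (0.06 centred on length), with 22 of 27 above 1 (16 of 27 centred), and the mitochondrially encoded transcripts one of 0.10, which turned to -0.10 after centring.

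Other stress and defense lists were mixed. HMOX1, the heme oxygenase, read 5.93 and 23.9 CPM, a ratio of 4.03 (3.34 to 4.88), and AKR1C1 6.09 and 13.4 CPM, in a list of 21 NRF2 targets with a median of 0.22 (0.16 centred on length). The NRF2 target NQO1 read 125 and 127 CPM. The metallothioneins, which bind zinc and copper, were above 1 in 7 of 9 cases with a median of 0.41 (0.21 centred on length), MT2A at 95.5 and 166 CPM and MT1M at 0.853 and 6.63 CPM, but they are close copies and their single values are uncertain. Of 17 antigen presentation genes 12 were above 1 and 5 below, with a median of 0.25 (0.12 centred on length). Among the higher ones, CD74, the chaperone of MHC class II, read 6.41 and 19.3 CPM, and 4.01 and 3.54 CPM in the cultures. The class I light chain B2M read 250.3 and 324 CPM. The lowest member was at a log2 ratio of -0.96. Interferon response genes had a median of -0.04 (0.02 by total counts, -0.23 centred on length) over 29 members, with IRF9 2-fold lower and BST2 2-fold higher. Cholesterol synthesis and uptake genes had a median of -0.30, 17 of 25 below 1. HMGCS1, which starts the pathway, read 806 and 383 CPM, and INSIG1, its feedback sensor, 488 and 298 CPM.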

How the data were processed

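The analysis used the deposited table of raw read counts per human gene. Per the submitters' processing notes, reads were handled with STAR 2.7.2b and HTSeq 0.11.0 and the genome builds hg38 and GRCm39 were named; the annotation release, strand setting and treatment of mouse reads are not given in the sources used here. Xenograft libraries carry Mus musculus as their organism label. Per the labels' protocols, poly(A) RNA was enriched on oligo(dT) and primed by random hexamers, with no step that marks the strand, so overlapping and antisense genes cannot be told apart.

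From these counts, CPM was computed as counts over the library total times its TMM factor (edgeR 4.0.16 in R 4.3.3, all 8 libraries, 16070 genes with 1 CPM or more in at least 2 libraries; factors 1.07 for Dox (-) and 1.10 for Dox (+)). Each ratio has an exact conditional binomial 95% interval (Clopper-Pearson, SciPy 1.17.1) that covers counting error only, checked on simulated data. It was computed without a prior count, and a library with 0 counts was set at a floor of 3. A gene was called at 2-fold. No test was made, since each group has 1 library and nothing measures the spread between tumors.

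Symbols came from a gene name table (93.8% of 60483 genes), coordinates from GENCODE release 29 (GRCh38), and promoter windows from RefSeq (GRCh38.p14), which matched 9228 of the genes described.

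The genes described and the 47 lists were chosen with earlier results of these data known. Named were GNAS, the 15 protein-coding and 5 non-coding genes per direction whose interval lies farthest from 1, the 10 genes with the most reads, and for each list the 3 most abundant members, the 3 with the largest ratio and, for the cAMP, Gs, hypoxia and immediate early lists, all at 2-fold. Other named genes were chosen after their values were seen. Alternatives were scaling by total counts, by TMM on the pair and by DESeq2 1.42.0 size factors, thresholds of 1 and 10 CPM, a prior count of 2, protein-coding genes only, the whole interval past 2-fold and, added after seeing the data, centring on transcript length. Single values of a few genes that the naming rule or the lists select are not reported here.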

Additional observations from a re-analysis of the deposited data

How the results depend on the processing

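No paired analysis was possible because each group has 1 library and the labels carry no replicate numbers; for the same reason no library could be left out. The counts of genes at 2-fold, 167 higher and 337 lower, moved with what was counted: 599 and 939 at 1 CPM, 96 higher (231 lower) at 10 CPM, and 85 and 181 when the whole counting interval had to pass 2-fold. Scaling moved them less, to 214 and 314 by total counts, 175 and 362 by TMM on the pair, and 157 and 338 by DESeq2 size factors. The log2 ratio of GNAS was 0.29 by total counts and 0.23 under the other scalings. Among genes named by the rule, those near a ratio of 1 changed sign: 6 by total counts (MT-CO1, GAPDH, TKT, HLA-E, SOD2 and CXCL16, none over 0.053 from 0), 2 by DESeq2 size factors and 12 centred on length (among them MT-CO2, MT-CO3 and MT-ATP6, none over 0.18 from 0). By total counts KLF4, SIK1, IER3, AJUBA, STARD4 and LAMA3 came inside 2-fold. Centred on length EEF1A1P5, SIK1, HES5, VEGFA, PPFIA4, STARD4, BST2, LAMA3, PLA2G2A and MSLN did. The medians of 9 lists changed sign under a setting, among them ATF4 targets (-0.10, and 0.004 at 10 CPM) and the 3 replication-dependent histones (-0.25, and 0.04 by total counts). At these depths counting error is small for most genes, whose ratio intervals reach a median of 0.15 to either side on the log2 scale; the difference between 2 tumors grown alike, which these libraries cannot show, is the limit on every value above.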
